A study of Mus musculus with 6 samples.

Results

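The genes described here encode the core machinery of N6-methyladenosine (m6A), a methyl mark on adenosine in mRNA, and were chosen by symbol as a comparison to the 5-methylcytosine (m5C) pathway in which Ybx1 acts. All 10 named genes were found among the 17920 genes of the expression table, and all 10 passed the filter on low counts that left 13669 genes for testing. RNA was measured in 6 libraries from E13.5 mouse cortical cells, 3 labelled WT and 3 labelled KD, for Ybx1 knockdown. The labels give brain as the tissue and no strain or treatment, and the methods of the study describe dissociated cortical cells grown in culture, infected with lentivirus carrying a short hairpin RNA and treated with puromycin, an antibiotic that kills uninfected cells. A control hairpin and more than 1 Ybx1 hairpin are listed there, but not which of them each library carried, and the cells were a mixed population rather than a clone. Each library held between 16294635 and 16497505 estimated counts.

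m6A is deposited in the nucleus by a writer complex in which Mettl3 carries the catalytic site and Mettl14 holds the RNA in place, while Wtap and Virma position this pair on the transcript. Fto and Alkbh5 are demethylases, called erasers. The mark is read by proteins with a YTH domain: Ythdc1 works in the nucleus, where it acts in splicing and export, and Ythdf1, Ythdf2 and Ythdf3 work in the cytoplasm, where they promote decay of marked mRNA and have been linked to its translation. In the developing cortex the mark is known for setting the pace at which radial glia divide and produce neurons.

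The coding sequences of the writer pair are shown because Mettl14 and Mettl3 are compared below, and the difference between their active sites lies in these codons. Capitals mark the 4 codons of the catalytic motif of Mettl3, named DPPW, and the 4 codons at the matching place of Mettl14, which does not catalyse the reaction. Each set occurred 1 time in frame, from codon 395 of Mettl3 and from codon 192 of Mettl14. In GRCm38, the Mettl3 window lies in coding exon 6 of 11 on the minus strand at chr14:52297572-52297601 and the Mettl14 window in coding exon 7 of 11 on the minus strand at chr3:123374796-123374825.
Mettl3: gtgatggctGACCCACCTTGGgatattcac
Mettl14: attctcctgGAGCCCCCTCTGgaagaatac

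To see how the members compare in abundance, levels were taken as TPM, a unit scaled to each library's total that divides by transcript length. In WT libraries Fto was highest at 132 ± 10.4 TPM (SD, n = 3), above 89.9% of the genes tested, and Alkbh5 was lowest at 16.03 ± 0.724 TPM, above 41.4% of them. Both erasers thus stood at the ends of the order. Wtap (66.0 ± 1.07 TPM) and the nuclear reader Ythdc1 (58.6 ± 2.19 TPM) followed Fto, and then came Ythdf1 (43.3 ± 1.04 TPM). Ythdf2 (38.0 ± 1.52 TPM), Mettl3 (37.5 ± 0.886 TPM) and Ythdf3 (37.2 ± 1.27 TPM) had overlapping WT libraries and could not be ordered. Mettl14 (22.8 ± 0.570 TPM) and Virma (20.7 ± 0.840 TPM) lay below them, and apart from the overlaps among Ythdf2, Mettl3 and Ythdf3, each gene's WT libraries stood clear of its neighbours. The order of the 10 mean levels in KD was the same as in WT.

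**Figure D1:**
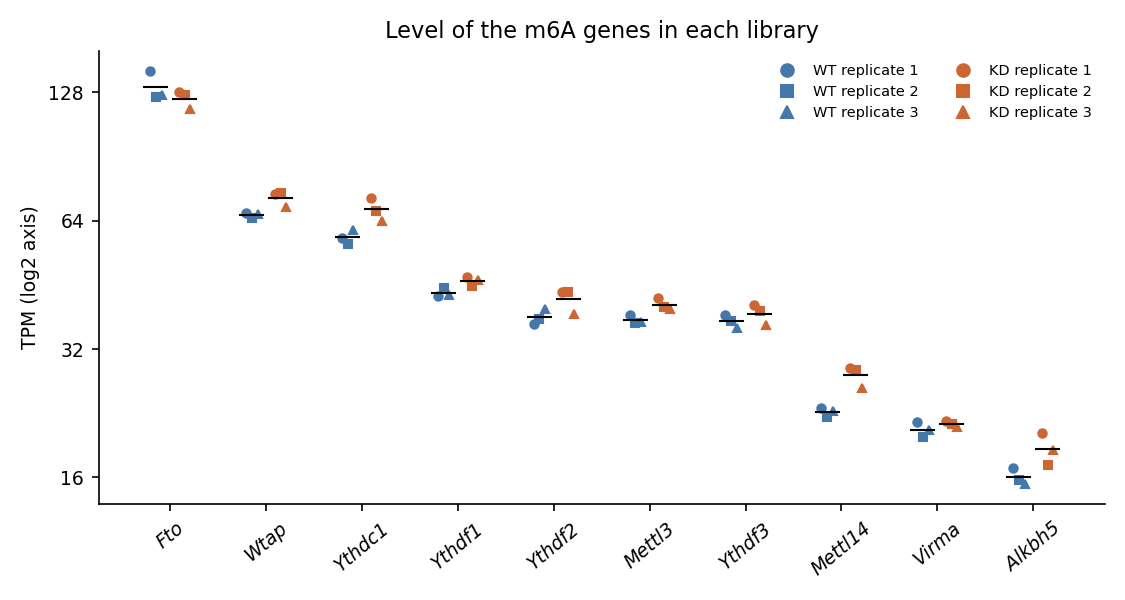
Level of each m6A gene in every library, in TPM on a log2 axis, ordered by the WT mean; symbols stand for replicates, colours for WT and KD, and black lines for group means (n = 3). Fto lies highest and Alkbh5 lowest, and Ythdf2, Mettl3 and Ythdf3 share a range.

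The targeted gene was examined before the members. Ybx1 was at 618, 615 and 653 CPM (counts scaled to the size of the library) in WT replicates 1, 2 and 3 and at 98.3, 92.2 and 159 CPM in KD replicates 1, 2 and 3, so the KD mean was 18.5% of the WT mean (log2 fold change -2.43, SE 0.18, adjusted P = 1.8e-04). Unless another method is named, every adjusted P comes from the edgeR quasi-likelihood fit, corrected by Benjamini-Hochberg over the 13669 genes, and the threshold was 0.05.

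In the main fit, which does not pair the libraries, Mettl14 was higher in KD past the threshold, and the other 9 members did not pass it. That is 1 gene higher, where 12% of all genes tested were higher, and 0 lower, where 11.9% were lower, or 24% in both directions. At an unadjusted P of 0.05, which 37.9% of all genes reached, 2 members were higher (Mettl14 and Ythdc1) and 0 were lower. DESeq2, which called 21.2% of all genes, called 0 members in either direction. Limma-voom, which called 23.8% of all genes, called 1 member higher and 0 lower. The median log2 fold change was 0.08 over the 10 members and 0.00 over all genes tested, and the median size without sign was 0.09 for the members and 0.16 for all genes. The largest size among the members was 0.24, that of Mettl14. The CPM ranges of the groups were separate for 4 of the 10 members, against 41.6% of all genes tested. The same-numbered WT and KD libraries deviated together. With the replicate number as a block, which pairs them, 2 members were higher (Mettl14 and Ythdc1) and 1 was lower (Fto). The share of all genes called rose to 36.6% in that fit.

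**Figure D2:**
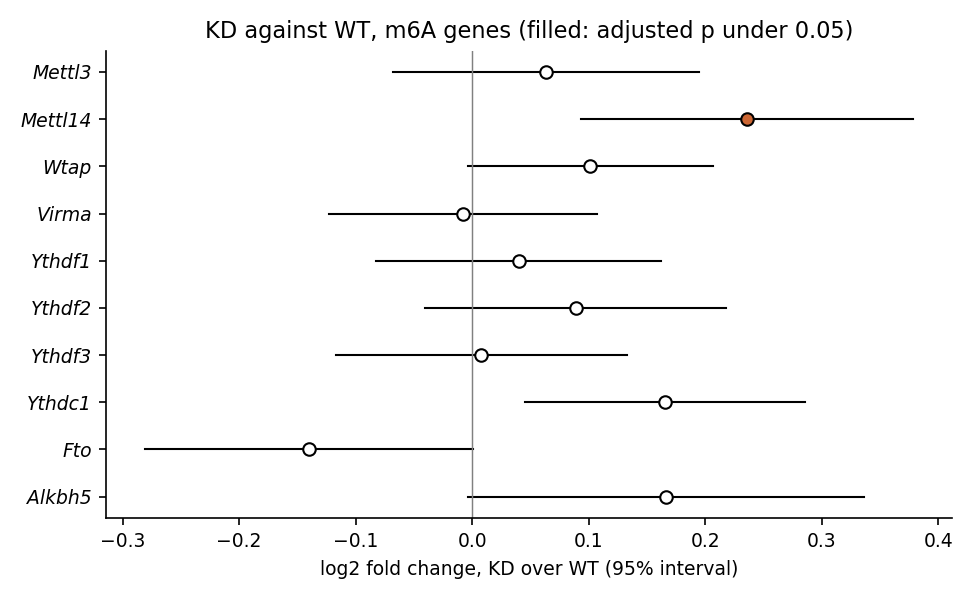
Log2 fold change of KD over WT for each m6A gene (points) with its 95% interval (lines) from the edgeR fit over all genes; a filled point passed the adjusted threshold of 0.05. Mettl14 is the filled point at 0.24, and Fto (-0.14) and Virma (-0.01, but above 0 with total count scaling and on TPM) are the genes below 0.

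Among the writers, Mettl14 was at 27.3, 26.3 and 26.5 CPM in WT replicates 1, 2 and 3 and at 32.5, 32.0 and 29.9 CPM in KD replicates 1, 2 and 3. Every KD library was above every WT library. The log2 fold change was 0.24 (SE 0.06, 95% interval 0.09 to 0.38, adjusted P = 0.0272). Mettl14 was higher in all 3 same-numbered pairs, as were Mettl3, Wtap, Ythdc1 and Alkbh5. The share of all genes with the same direction in all 3 pairs was not counted. The call rested on most of the libraries: the adjusted P was 0.0533 without WT replicate 1, 0.0959 without WT replicate 2, 0.0812 without KD replicate 1 and 0.0972 without KD replicate 2, and 0.083 in DESeq2 with all libraries. Fewer of all genes were called in these fits as well, 11.4% to 16.6% without those libraries and 21.2% in DESeq2, against 24%. Over its 16 alternatives the adjusted P ranged from 0.012 to 0.0972 and the log2 fold change from 0.21 to 0.28.

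Mettl3, the catalytic partner, was at 33.6, 32.5 and 31.8 CPM in WT and at 35.1, 33.2 and 33.9 CPM in KD. The groups overlapped in CPM, with a log2 fold change of 0.06 (95% interval -0.07 to 0.19, adjusted P = 0.465). In TPM they did not overlap, with WT between 36.93 and 38.55 and KD between 39.8 and 42.2. The estimated counts of Mettl3 were fractional in all 6 libraries, while those of the other 9 members were whole numbers. How far this makes Mettl3 less certain was not measured. In the GRCm38 annotation Mettl3 (chromosome 14, positions 52294841 to 52305128) overlaps Tox4 on the opposite strand. Virma and Fto also overlap annotated genes on the opposite strand, and Fto and Ythdc1 overlap annotated genes on their own strand. Whether reads were counted by strand is not given in the sources used here.

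Wtap, the scaffold that brings the catalytic pair to nuclear speckles, was at 105, 106 and 105 CPM in WT and at 111, 117 and 111 CPM in KD. Its groups did not overlap, yet its log2 fold change of 0.10 missed the threshold (95% interval 0.00 to 0.21, adjusted P = 0.145). Virma, the largest subunit, which guides methylation towards the end of the coding region, was at 72.5, 67.6 and 68.7 CPM in WT and at 69.9, 68.5 and 69.3 CPM in KD. All KD libraries of Virma lay within the WT range, and its log2 fold change was -0.01 (95% interval -0.12 to 0.11, adjusted P = 0.925).

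Among the readers, Ythdc1 was at 86.7, 84.9 and 89.6 CPM in WT and at 103, 96.3 and 94.0 CPM in KD. Its KD libraries all lay above its WT libraries, with a log2 fold change of 0.17 (SE 0.05, 95% interval 0.04 to 0.29), and its adjusted P of 0.0515 lay just above the threshold. With the replicate block the adjusted P of Ythdc1 was 0.0258, with total count scaling 0.0384 and by limma-trend on TPM 0.0355, and its 16 alternatives spanned 0.0258 to 0.158. KD replicate 1 was the highest of the 3 KD libraries.

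The cytoplasmic readers did not pass the threshold. Ythdf2, which recruits the CCR4-NOT deadenylase to marked mRNA, was at 70.0, 72.7 and 74.7 CPM in WT and at 79.5, 79.3 and 72.4 CPM in KD (log2 fold change 0.09, 95% interval -0.04 to 0.22, adjusted P = 0.287). Its KD replicates 1 and 2 were above the WT range and KD replicate 3 was within it. Ythdf1 lay between 61.2 and 65.3 CPM in WT and between 62.1 and 66.1 CPM in KD (0.04, 95% interval -0.08 to 0.16, adjusted P = 0.629). Ythdf3 lay between 86.8 and 94.3 CPM in WT and between 87.9 and 95.3 CPM in KD (0.01, 95% interval -0.12 to 0.13, adjusted P = 0.932). For each of the 3 Ythdf genes, 2 of the 3 same-numbered pairs were higher in KD. Of their summed TPM, Ythdf1 made up 36.5% ± 0.63 in WT and 36.4% ± 1.58 in KD, Ythdf2 32.1% ± 1.27 and 33.0% ± 1.17, and Ythdf3 31.4% ± 1.17 and 30.5% ± 0.481 (SD, n = 3).

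The erasers had fold changes of opposite sign. Fto was at 236, 207 and 205 CPM in WT and at 201, 198 and 189 CPM in KD. Its KD libraries lay below its WT libraries in CPM, and WT replicate 1 stood above the rest. The log2 fold change was -0.14 (SE 0.06, 95% interval -0.28 to 0.00) and the adjusted P of 0.134 missed the threshold. With the replicate block it was -0.14 with an adjusted P of 0.0378, and Fto was lower in all 3 same-numbered pairs. Without WT replicate 1 the log2 fold change of Fto was -0.07 (adjusted P = 0.407). In TPM the groups of Fto overlapped, with WT between 125 and 143 and KD between 117 and 128. The unit also mattered for Alkbh5, Mettl3 and Ythdf1, whose groups overlapped in CPM but had every KD library above WT in TPM. On TPM the median log2 fold change over all genes was also higher, 0.05 by limma-trend against 0.00 in the main fit. The share of all genes with separate groups in TPM was not counted. Alkbh5 was at 48.7, 46.0 and 44.1 CPM in WT and at 56.2, 47.0 and 52.6 CPM in KD. KD replicate 2 lay inside the WT range in CPM, but in TPM the KD libraries (17.07 to 20.35) all lay above WT (15.48 to 16.85). The log2 fold change was 0.17 (95% interval 0.00 to 0.34, adjusted P = 0.139). Without KD replicate 1 it was 0.11 (adjusted P = 0.372) and without KD replicate 2 it was 0.23 (adjusted P = 0.0744). With the replicate block the log2 fold change of Alkbh5 was 0.16 (adjusted P = 0.0525).

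**Figure D3:**
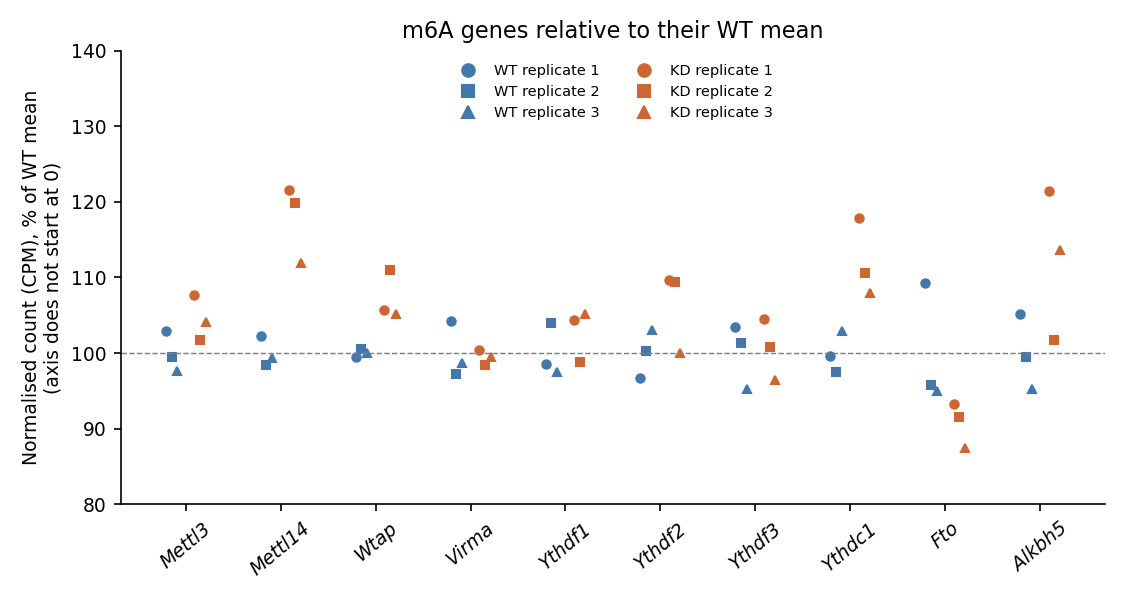
Normalised count (CPM) of each m6A gene in every library as a percentage of that gene's WT mean; symbols stand for replicates and colours for WT and KD, and the axis does not start at 0. The KD libraries lie above the WT libraries for Mettl14, Wtap and Ythdc1 and below them for Fto, and they overlap for the other 6 genes.

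Ratios of TPM within a library were taken to compare members with each other. The TPM of Mettl14 was 0.606 times that of Mettl3 in WT and 0.683 times in KD, as geometric means, and the log2 ratio was -0.73, -0.74 and -0.70 in WT and -0.55, -0.49 and -0.62 in KD. Fto had 8.19 times the TPM of Alkbh5 in WT and 6.65 times in KD, with log2 ratios of 3.09, 2.98 and 3.03 in WT and 2.65, 2.89 and 2.66 in KD. In both cases no KD library reached the WT range. The difference in log2 ratio, KD minus WT, was 0.17 for Mettl14 to Mettl3 and -0.30 for Fto to Alkbh5.

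Virma to Mettl3 also did not overlap, with a smaller difference of -0.07. Each of these 3 ratios had P = 0.1 in a two-sided exact permutation test, the smallest that 3 libraries against 3 allow, and 0.233 after adjustment over the 7 ratios, so none could pass the threshold. The other 4 ratios had an exact permutation P of at least 0.2: the differences were 0.02 for Wtap to Mettl3, -0.05 for Ythdf1 to Ythdf2, -0.08 for Ythdf3 to Ythdf2 and 0.07 for Ythdc1 to Ythdf2. Among these 4 differences the sign depended on a single library for Wtap to Mettl3 and for Ythdf1 to Ythdf2. It was kept for Ythdf3 to Ythdf2 and for Ythdc1 to Ythdf2. Without KD replicate 2 the difference turned to -0.01 for Wtap to Mettl3 and to 0.0019 for Ythdf1 to Ythdf2. Without 1 library at a time they spanned -0.01 to 0.04 for Wtap to Mettl3, -0.11 to 0.0019 for Ythdf1 to Ythdf2, -0.14 to -0.03 for Ythdf3 to Ythdf2 and 0.05 to 0.11 for Ythdc1 to Ythdf2. The largest size came without KD replicate 3 for the first and second of these ratios, without WT replicate 3 for Ythdf3 to Ythdf2 and without KD replicate 2 for Ythdc1 to Ythdf2, and the smallest for Ythdf3 to Ythdf2 came without WT replicate 1. The spans were 0.14 to 0.21 for Mettl14 to Mettl3, -0.09 to -0.06 for Virma to Mettl3 and -0.38 to -0.26 for Fto to Alkbh5. The Mettl3 values in 3 of these ratios are the fractional ones.

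**Figure D4:**
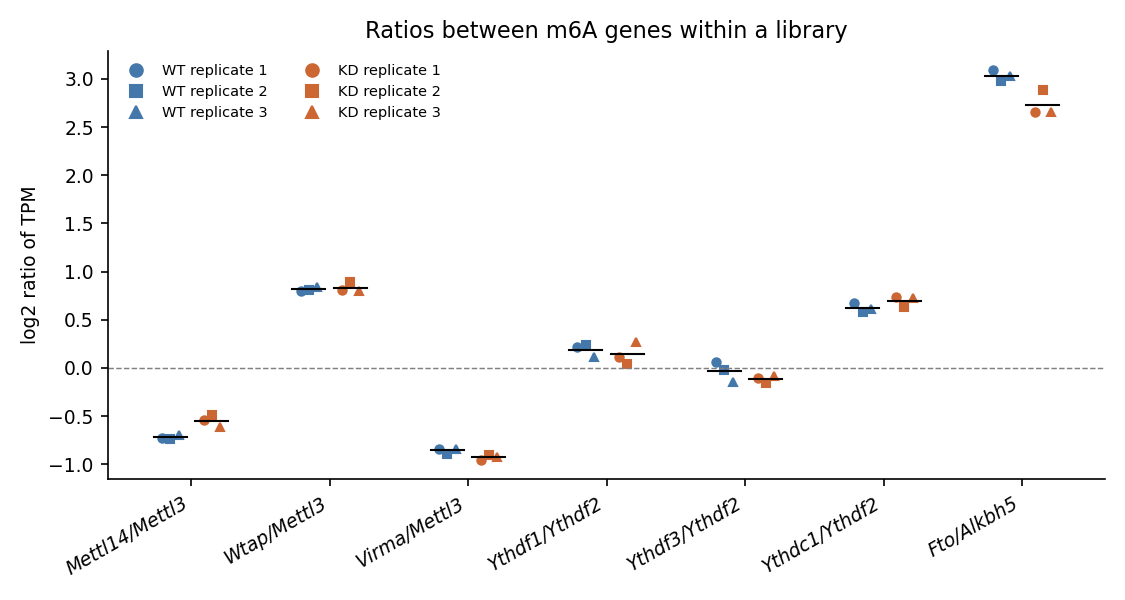
Log2 ratio of TPM between pairs of m6A genes in every library; symbols stand for replicates, colours for WT and KD, and black lines for group means (n = 3). The groups stand apart for Mettl14 to Mettl3, Virma to Mettl3 and Fto to Alkbh5.

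To place the members among their partners, lists of related genes were examined. Of 9 other writer genes, 2 were higher, 0 were lower and 7 did not pass, with a median log2 fold change of -0.07. The called share of 22.2% was near the 24% of all genes tested. Pcif1, which methylates the adenosine beside the mRNA cap, rose from 63.3 ± 3.48 to 72.8 ± 0.277 CPM (0.20, SE 0.06, adjusted P = 0.0307), with estimated counts that were not whole in any library. Zcchc4, which methylates ribosomal RNA, rose from 13.8 ± 1.09 to 17.2 ± 0.586 CPM (0.31, SE 0.09, adjusted P = 0.0388). Of this list 0 genes were higher without WT replicate 1 or without any 1 of the KD replicates, 1 was higher without WT replicate 2 or 3, and 1 was lower without WT replicate 3. DESeq2 called 1 higher and 0 lower. Fewer genes were called over the whole table as well, 11.4% to 23.1% without a single library and 21.2% in DESeq2. Further subunits of the Mettl3 complex did not pass: Zc3h13 was at -0.07 (adjusted P = 0.482), Rbm15 at -0.24 (adjusted P = 0.241), Rbm15b at 0.06 (adjusted P = 0.544) and Cbll1 at -0.10 (adjusted P = 0.27). Mettl16, a separate m6A methyltransferase, was at -0.21 (adjusted P = 0.192) and at -0.20 with the replicate block (adjusted P = 0.0246). Trmt112, the partner of the ribosomal RNA methyltransferase Mettl5, had the highest TPM of the list (124) and a log2 fold change of 0.09 (adjusted P = 0.352).

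Of 9 other readers or proteins reported to bind m6A RNA, 4 were higher, 0 were lower and 5 did not pass, with a median of -0.01 (44.4% called, against 24% of all genes). The 4 are Hnrnpa2b1, Hnrnpc and Rbmx, nuclear RNA-binding proteins that also act in splicing, and Fmr1, the fragile X protein. Hnrnpa2b1 had the highest TPM of the list and rose from 593 ± 3.13 to 722 ± 20.8 CPM (0.29, SE 0.04, adjusted P = 0.0023), a call kept in all 16 alternatives. Hnrnpc rose by 0.19 (adjusted P = 0.0214), Rbmx by 0.24 (adjusted P = 0.0196) and Fmr1 by 0.17 (adjusted P = 0.0275) on the log2 scale. Without WT replicate 2, 1 gene of the list was higher, and 2 were higher without WT replicate 1 or any 1 of the KD replicates. Of all genes 11.4% were called without WT replicate 2 and 12.6% to 18.5% in those other fits. DESeq2 called 3 of them higher, without Fmr1, whose call was kept in 10 of 16 alternatives. Igf2bp1 (-0.05, adjusted P = 0.781), Igf2bp2 (-0.16, adjusted P = 0.14) and Igf2bp3 (-0.01, adjusted P = 0.964), which stabilise bound mRNA, did not pass, nor did the helicase gene Ythdc2 (-0.04, adjusted P = 0.631).

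The deadenylases shorten the poly(A) tails of mRNA, including those bound by Ythdf2. Of 13 CCR4-NOT and PAN genes, 5 were higher, 1 was lower and 7 did not pass, with a median of 0.10 (46.2% called, against 24% of all genes). The scaffold gene Cnot1 rose from 206 ± 8.28 to 254 ± 8.35 CPM (0.30, SE 0.05, adjusted P = 0.0039). The catalytic subunit gene Cnot7, which had the highest TPM of the list, rose from 156 ± 2.87 to 181 ± 5.62 CPM (0.22, SE 0.05, adjusted P = 0.0106). Cnot3 (0.24, adjusted P = 0.0131), Cnot6l (0.23, adjusted P = 0.0163) and Pan2 (0.23, adjusted P = 0.0201) were also higher, and the counts of Cnot3 and Cnot6l were fractional in all libraries. Cnot9 was lower (-0.19, adjusted P = 0.0449) and kept its call in 7 of 16 alternatives. Without either KD replicate 1 or 2, or without WT replicate 2, 3 genes were higher and 0 lower, where 11.4% to 15.8% of all genes were called. The calls of Cnot1, Cnot3 and Cnot7 were kept in all 16 alternatives.

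Among 3 genes that supply the methyl donor S-adenosylmethionine, 0 were higher and 1 was lower (33.3% called, against 24% of all genes). This was Ahcy, which clears the by-product of the donor (-0.22, adjusted P = 0.0448). Its call was kept in 7 of 16 alternatives and lost without any 1 library except WT replicate 3. The estimated counts of Ahcy were fractional in 5 of 6 libraries and those of Mat2a in all 6. Mat2a, the enzyme that makes the donor and the highest of the 3 in TPM, was at 0.17 (adjusted P = 0.0796) and at 0.17 with the replicate block (adjusted P = 0.0128). Mat2b was at 0.15 (adjusted P = 0.175). The m5C list holds the writers Nop2, Nsun2 to Nsun7 and Trdmt1 and the reader Alyref. Of its 9 genes 0 passed in edgeR, in DESeq2, in limma-voom or with the replicate block. These fits called 24%, 21.2%, 23.8% and 36.6% of all genes, in the same order. At an unadjusted P of 0.05 in edgeR, which 37.9% of all genes reached, 1 of the 9 was higher and 1 lower. By limma-trend on TPM, which called 23% of all genes, 1 gene of the list was higher, Alyref (log2 fold change 0.23, adjusted P = 0.0418). The median was -0.03. Alyref had the highest TPM of this list and a log2 fold change of 0.18 (adjusted P = 0.13). The lists differ in size and level, and no difference between them was tested.

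**Figure D5:**
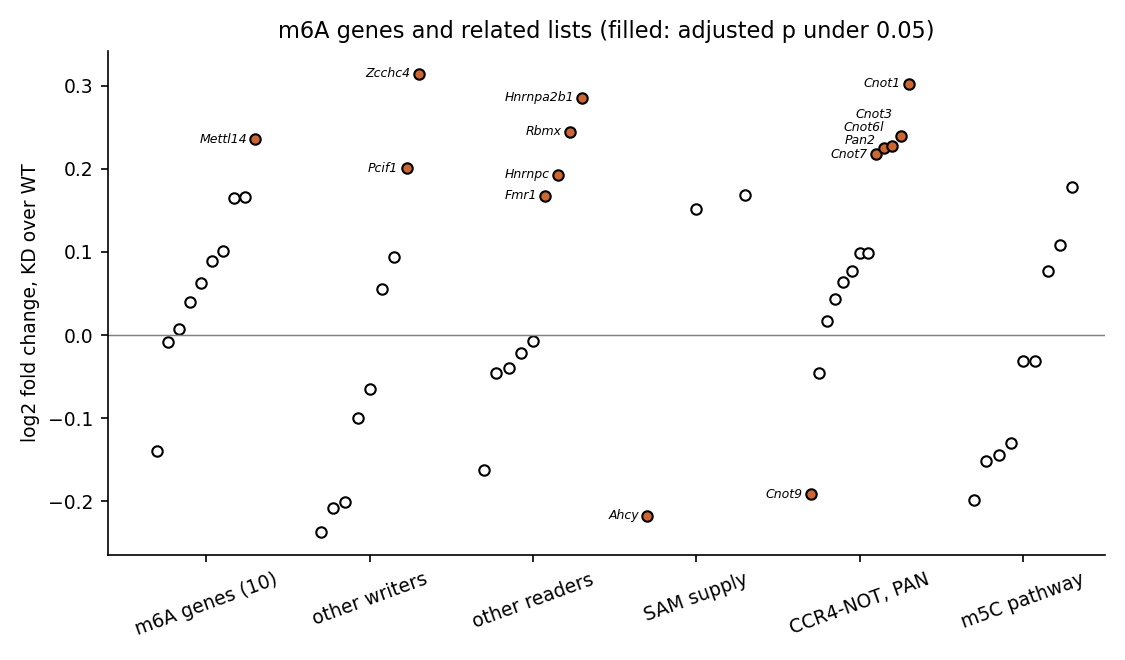
Log2 fold change of KD over WT for the m6A genes and 5 related gene lists, 1 point per gene and sorted within each list; filled points passed the adjusted threshold of 0.05 and are named. Filled points are 1 of 10 m6A genes, 2 of 9 other writers, 4 of 9 other readers, 1 of 3 donor supply genes, 6 of 13 deadenylase genes and 0 of 9 m5C genes. Of all genes tested 24% passed.

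The gene whose profile over the 6 libraries was most like that of Mettl14, the member that passed, was Fam217b (Pearson's r = 0.994 of log2 CPM), followed by Mthfd1 (0.993) and Rad54l2 (0.992). The search covered 8496 genes of similar level, of which 301 had an r over 0.95, and with 6 libraries such values are a description only. The log2 fold changes were 0.31 for Fam217b, 0.38 for Mthfd1 and 0.48 for Rad54l2. The search ran over both groups, so values above 0 follow from the likeness to Mettl14.

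Markers of cell types and of division differed between the same libraries. Their counts are to be read against the 24% of all genes called, or 36.6% with the replicate block. The share of all genes was 11.4% without WT replicate 2, 21.2% in DESeq2, 23.8% in limma-voom and 37.9% at an unadjusted P of 0.05. Of 8 proliferation markers 6 were higher and 0 lower, with a summed level of 321 to 362 TPM in WT and 443 to 559 TPM in KD. Of 6 intermediate progenitor markers tested, of 7 listed, 4 were higher and 0 lower (65.7 to 87.4 TPM in WT and 136 to 161 TPM in KD), and of 11 radial glia markers 3 were higher (3136 to 3551 and 3636 to 3908 TPM). With the replicate block 8 proliferation markers, 6 intermediate progenitor markers and 6 radial glia markers were higher, and 0 of these lists were lower. Without WT replicate 2, 3 proliferation markers, 3 intermediate progenitor markers and 1 radial glia marker were higher. Of 11 neuron markers 2 were higher and 2 lower (5329 to 6028 and 5227 to 6030 TPM), and with the replicate block 5 were higher and 2 lower. Of 6 oligodendrocyte lineage markers Olig1 alone passed, lower in KD (322 to 428 and 277 to 347 TPM), and 3 were lower with the replicate block. Of 6 GABAergic neuron markers Dlx2 alone passed, higher in KD (458 to 677 and 493 to 758 TPM), and 2 were higher and 1 lower with the replicate block. Of 4 astrocyte markers tested, of 5 listed, 0 passed in edgeR, in DESeq2 or in limma-voom, and 0 reached an unadjusted P of 0.05 (193 to 230 and 220 to 245 TPM).

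The summed markers of microglia (at most 6.01 TPM), of endothelial cells (at most 1.5 TPM) and of mural and meningeal cells (at most 9.12 TPM) were low in every library, and those of erythroid cells, of which 2 of 5 were listed, reached at most 0.72 TPM. No marker in the table was at 0 in all libraries. Of the mural and meningeal markers, Pdgfrb was higher in KD, a call lost without any 1 library except WT replicate 3. The libraries thus carried neural markers, with those of blood, vessel and microglial cells low. The part of these shifts in the values of Mettl14, Ythdc1, Fto and the related lists was not tested, and in such mixed cultures fewer cells of a type and less RNA per cell cannot be told apart.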

How the data were processed

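The libraries were made from purified mRNA and sequenced on the DNBSEQ platform. The submitters' processing notes name HISAT2 2.2.1, Bowtie2 2.4.5, RSEM 1.3.1 and GRCm38 (mm10) without their roles, and the annotation is not given in the sources used here. The deposited table holds the authors' estimated counts per gene, TPM values that the authors scaled to a fixed total per library, and FPKM values that the authors deposited for the same libraries and that served here only as an alternative for ratios. Group averages were not used. Ctrl columns were matched by replicate number to the samples titled WT.

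Estimated counts were rounded and tested in edgeR 4.0.16 (R 4.3.3) with TMM scaling, filterByExpr (minimum count 10) and the quasi-likelihood F-test over 13669 genes, without a block. The SE was taken from the size of the log2 fold change over the root of F. Intervals are 95%, unadjusted. Alternatives used DESeq2 1.42.0 and limma 3.58.1 (limma-voom, and limma-trend on log2(TPM + 1)). P values measure the spread between 3 libraries per group, which the methods describe as independent experiments. Same-numbered libraries had correlated deviations from the group means (0.35, 0.32 and 0.18 for replicates 1, 2 and 3), so the numbers were read as pairing the libraries. Other pairs lay at -0.28 to -0.02, in part because deviations within a group sum to 0. The main fit leaves this pairing out, and the fit with the replicate block takes it into account. Named genes are the 10 members, Ybx1, genes of the lists past the threshold and the highest in TPM of each list, the 3 genes most like a called member, and a few list members added after their values were seen (Zc3h13, Rbm15, Rbm15b, Cbll1, Mettl16, the Igf2bp genes, Ythdc2, Mat2b). Members and lists were chosen with earlier results of these data known.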

Additional observations from a re-analysis of the deposited data

How the results depend on the processing

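Of all genes tested, 1646 were higher and 1631 lower in KD. The replicate block gave 2539 and 2470, and limma-trend on TPM gave 1072 lower, with 65.9% of its calls higher against 50.2%. Without a single library the number higher lay between 779 and 1612 and the number lower between 797 and 1583, with the fewest without WT replicate 2. Without KD replicate 2 there were 884 higher and 849 lower, and without KD replicate 1 there were 1077 lower. Among the m6A genes 1 was higher and 0 lower. This became 2 higher with total count scaling, with limma-trend on TPM and with the replicate block, which also gave 1 lower, and 0 higher in DESeq2. Without a single library the number higher was 0 or 1. The paired fit changed the calls of Ythdc1 and Fto and of no other member. Virma had a log2 fold change of 0.0138 with total count scaling, 0.0422 by limma-trend on TPM and from -0.0287 to 0.0226 without a single library, and Ythdf3 of -0.0127 with upper quartile scaling and from -0.0259 to 0.0394 without a single library. No other m6A gene changed its sign in 16 alternatives, and no scaling shifted the median of all genes by more than 0.05. Fewer samples enter the fits without a library. Where no cause is named, the cause was not tested. The 3 libraries per group limit the precision to the intervals given.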
